A study of Schizosaccharomyces pombe with 4 samples.

Results

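The RNA library labelled wild type, from the fission yeast Schizosaccharomyces pombe, was compared feature by feature with an unnamed reference library. It is 1 of the 4 libraries of the study. All 7015 annotated features were examined, of which 5144 were mRNA features, 1236 other transcripts and 635 antisense features. The same ratio was then read in the libraries labelled swd22 deletion, ssu72 deletion and clr4 deletion, 1 library each, to separate differences from the reference that all 4 cultures had from those of the library labelled wild type. All 4 cultures were kept in mid-log phase for 3 days at 18 °C in the rich medium YEA. The labels give no mating type, auxotrophic marker or clone for any strain. For the reference library, the sources used here give no genotype, temperature or origin. Each group held 1 library, so no test of a genotype or of temperature was possible, and no value below has a replicate check.

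Fission yeast meets cold, starvation and oxidative agents with a shared programme of stress genes, which depends on the Sty1 kinase and the transcription factor Atf1, while genes for ribosomes are lowered. Genes for the use of sugars other than glucose are kept low while glucose is plentiful. Swd22 and Ssu72 belong to the cleavage and polyadenylation factor (CPF), which cuts and releases the ends of transcripts. Clr4 methylates histone H3 and, with the chromodomain protein Swi6, builds the silent chromatin of the centromeres, the mating-type region and the chromosome ends.

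Values are log2 ratios of a library to the reference, scaled by the total reads of both, with the reads that stand behind them. The library labelled wild type held 15282718 reads over the features, the fewest of all, against 22652585 in the reference and 19630981 to 24005944 in the 3 mutants. Intervals in brackets are exact 95% intervals that cover counting error only. A feature was taken as measured from 10 reads in either library of a pair, and it was counted as different at 2-fold or more (1 on the log2 scale). All ratios share the reference library, so a feature that is unusual in the reference differs in all 4 libraries. The genes named in the labels were all present in the library labelled wild type, with 687 reads at swd22 (reference 651), 478 at ssu72 (740) and 1158 at clr4 (1328). The library labelled ssu72 deletion held 16 reads at ssu72, a log2 ratio of -5.61. The library labelled swd22 deletion held 281 reads at swd22, a log2 ratio of -1.003 (-1.21 to -0.80). Reads over this feature of 1529 bases were thus lower but not lost. The library labelled clr4 deletion held 1645 reads at the clr4 feature of 4492 bases, a log2 ratio of 0.30, so this feature was not lower. Where in the swd22 and clr4 features the reads fall was not examined. Whether the coding sequences are deleted, as the labels say, therefore cannot be told from these counts. The 3 mutant libraries are called swd22, ssu72 and clr4 below, after their labels.

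Relative to the reference, the library labelled wild type had 463 features that were higher by 2-fold or more (7.24% of the 6398 measured) and 419 that were lower by as much (6.55%). The shares were 11.3% and 4.3% in swd22, 11.9% and 3.79% in ssu72, and 11.1% and 3.14% in clr4, so wild type had the smallest share of higher and the largest share of lower features of the 4. In RNA from whole cultures, a change in the share of cells of one kind and a change in RNA per cell cannot be told apart. The median log2 ratio was -0.01 over all measured features and 0.02 over the mRNA features. The features on either side were unlike the measured set in type. Features of type mRNA made up 78.8% of the measured features, 59.2% of the higher and 34.4% of the lower ones. Non-coding SPNCRNA features were 177 of the 419 lower features and 62 of the 463 higher ones. Around the line, per1 (1.001) was just inside and SPAC56F8.15 (0.996) just outside on the higher side, and SPNCRNA.519 (-1.0004) just inside and mdm12 (-0.999) just outside on the lower side.

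Many of the higher features were shared with the mutants. A total of 249 features were at least 2-fold higher than the reference in all 4 libraries, 3.92% of the 6356 features measured in all 4, and 79 (1.24%) were at least 2-fold lower in all 4. A feature was assigned to the library labelled wild type alone when it was at least 2-fold from the reference and at least 2-fold, in the same direction, from each of the 3 mutants. This held for 58 higher features (0.907% of 6398) and 125 lower features (1.95%). By the wider rule, 2-fold in this library and in no mutant library, 86 features were higher and 222 lower. The classes overlap by 24 features, which were 2-fold from the reference in all 4 libraries and a further 2-fold out in the library labelled wild type. The remaining 171 higher and 224 lower features fell in neither class.

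**Figure D1:**
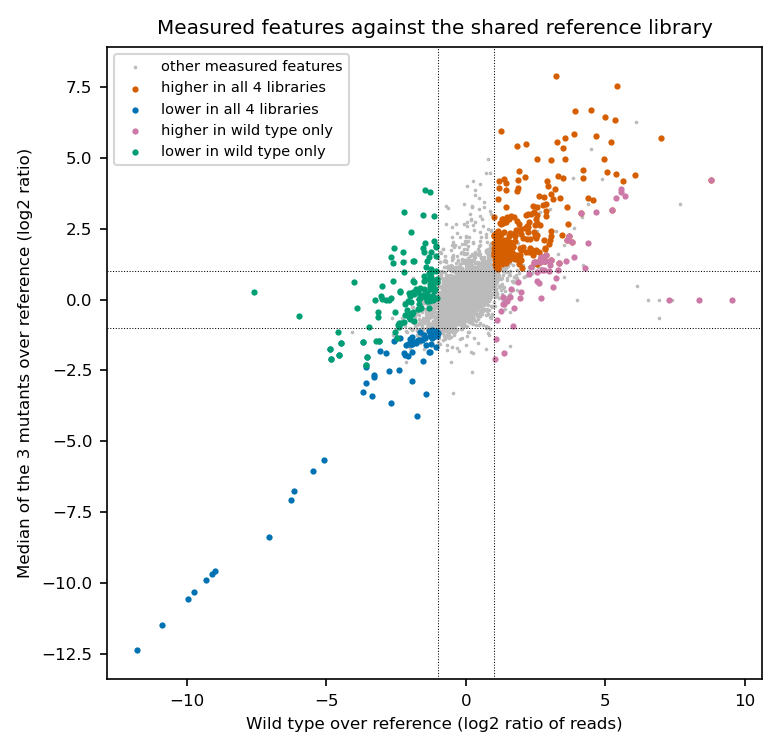
Each point is a measured feature, with the log2 ratio of the library labelled wild type to the reference on the x axis and the median log2 ratio of the 3 mutants on the y axis. Dotted lines mark 2-fold. The 249 features higher in all 4 lie at the upper right, the 79 lower in all 4 at the lower left, and the 58 and 125 of wild type alone lie to the right of and to the left of the main cloud. The 24 features in 2 classes carry the colour of wild type alone, and both axes share the reference library.

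The features higher in all 4 libraries were led by genes that were nearly silent in the reference. SPAC3G6.07, a protein specific to Schizosaccharomyces, held 1 read in the reference and 29 in the library labelled wild type, against 111, 214 and 188 in swd22, ssu72 and clr4, and the log2 ratio of wild type was 5.43 (2.84 to 10.78). SPAC23H3.15c, also specific to this genus, rested on far more reads. It held 186 reads in the reference and 5100 in wild type, with 13004 (swd22), 14143 (ssu72) and 19424 (clr4) in the mutants, a log2 ratio of 5.35 (5.14 to 5.57) in wild type. All 4 libraries lay far above the reference for both genes, and the library labelled wild type was the lowest of the 4. Wild type was also the lowest of the 4 for eno102, a predicted enolase, with 49 reads in the reference, 738 in wild type and 2291, 5313 and 5109 in swd22, ssu72 and clr4, and for wtf18, a wtf element (2, 43, 155, 168 and 177 reads in the order reference, wild type, swd22, ssu72 and clr4, which is kept below). SPBC660.05, a WW domain protein, was as high in wild type as in swd22, with 59 reads in the reference, 1238 in wild type and 1590, 1420 and 5502 in swd22, ssu72 and clr4. lsd90 had 277, 3419, 5697, 5346 and 17796 reads in that order and a log2 ratio of 4.20 (4.02 to 4.38) in wild type, close to that of ssu72 (4.19) and below that of clr4. SPAC977.18 (3, 136, 325, 67 and 60 reads) and SPBPB2B2.18 (0, 43, 77, 14 and 26 reads) were higher in wild type than in ssu72 and clr4. SPBPB2B2.18 was the 1 feature with 0 reads in the reference and at least 10 in every other library, at least 21.3-fold higher in wild type against a floor of 3 reads. Of their 50-base windows, 94.2% (SPBPB2B2.18), 86.3% (SPAC977.18) and 88.6% (wtf18) occur elsewhere in the genome, so these 3 can share reads with near-identical copies. Among the other feature types, SPNCRNA.603 (1, 25, 41, 23 and 93 reads), the threonine transfer RNA gene SPATRNATHR.03 (2, 67, 46, 34 and 37) and SPNCRNA.1304 (3, 24, 80, 199 and 95) stood furthest from the reference by the smallest of their 4 ratios.

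Several of the shared features lie side by side. A total of 10 stretches held 3 or more features that were higher in all 4 libraries, each within 5 kb of the next, 37 of the 249 features in all. The longest by number ran over 6 features on chromosome II (chrII:58136-66274), from eno102 to SPNCRNA.1304. Another of 5 features (chrII:194678-205721) held mfr1, a meiotic activator of the anaphase-promoting complex, fbp1, the gluconeogenic fructose-1,6-bisphosphatase, and SPBC660.05. Another of 4 features (chrI:5496942-5503291) held mel1, an alpha-galactosidase that lets cells use melibiose.

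The promoter windows of the shared higher genes are shown for the motif of the stress programme. TGACGT is the core of the element that Atf1 binds, and its reverse complement is ACGTCA. The 250 bases before the 5′ end of each mRNA feature were read from the RefSeq genome (ASM294v3), and both strands were searched. The motif lay in 30 of the 160 windows of mRNA features higher in all 4 libraries (18.8%), against 4.57% of all 5124 windows, 0 of 21 of the higher features of wild type alone and 7 of 27 of the core stress genes (25.9%). A match is a description of letters and not a binding site. The windows of SPAC3G6.07 (chrI:5391941-5392190, plus strand) and SPBC660.05 (chrII:202007-202256, plus strand) are printed because they belong to the shared higher genes furthest from the reference that hold the motif, given in capitals.
SPAC3G6.07: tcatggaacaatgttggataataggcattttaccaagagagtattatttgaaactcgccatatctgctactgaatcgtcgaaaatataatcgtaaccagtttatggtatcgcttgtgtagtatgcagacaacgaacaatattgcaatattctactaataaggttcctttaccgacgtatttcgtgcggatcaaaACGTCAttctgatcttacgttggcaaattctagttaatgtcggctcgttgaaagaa
SPBC660.05: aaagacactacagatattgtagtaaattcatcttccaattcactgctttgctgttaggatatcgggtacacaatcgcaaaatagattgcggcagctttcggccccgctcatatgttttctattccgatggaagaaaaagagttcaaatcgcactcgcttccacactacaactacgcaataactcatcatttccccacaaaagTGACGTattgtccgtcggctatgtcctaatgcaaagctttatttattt

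Core stress genes were among the features higher in all 4 libraries. Here and for the other lists, the median in each library is over the members measured in that library. Of 27 core stress genes, 10 were at least 2-fold higher in the library labelled wild type (37.0%, against 7.24% of all features) and 1 was lower. All 10 were at least 2-fold higher in the 3 mutants too. Of all features, 3.92% were higher in all 4 libraries. The list's median log2 ratio was 0.73 in wild type, below 1.30 in swd22, 1.31 in ssu72 and 1.88 in clr4. rds1, a conserved fungal protein of the stress list, held 1969 reads in the reference, 11087 in wild type and 6981, 11177 and 16974 in swd22, ssu72 and clr4. Its log2 ratio in wild type, 3.06 (2.99 to 3.13), was above those of swd22 (2.04) and ssu72 (2.42). ish1, a LEA domain protein, held 1260, 4950, 8657, 8498 and 17581 reads in the same order, and dak2, a dihydroxyacetone kinase, 1105, 4027, 6500, 9883 and 21462. For both genes clr4 was highest and wild type lowest of the 4. The exception of the list was sod1, the copper and zinc superoxide dismutase, with 15407 reads in the reference, 2606 in wild type and 9467, 14184 and 8554 in swd22, ssu72 and clr4. Its log2 ratio of -1.99 (-2.05 to -1.93) in wild type lay below the -0.86 to -0.20 of the mutants.

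Glucose-repressed carbon genes were often higher too. Of 18 measured, 10 were higher in wild type (55.6%, against 7.24% of all features) and 0 lower, and 6 of the 249 features higher in all 4 libraries (3.92% of all features) were of this list. The median was 1.07 in wild type and 1.05, 0.79 and 1.31 in swd22, ssu72 and clr4. The genes that digest external sugars were higher in every library but less so in wild type. mel1 held 7 reads in the reference, 71 in wild type and 603, 834 and 346 in swd22, ssu72 and clr4. inv1, the secreted invertase, held 95, 228, 3498, 3549 and 4484 reads, a log2 ratio of 1.83 (1.48 to 2.19) in wild type and 5.14 to 5.55 in the mutants. fbp1 showed the same split, with 148 reads in wild type against 95 in the reference and 1135 to 1748 in the mutants. gut2, the mitochondrial glycerol-3-phosphate dehydrogenase, and mae2, malic enzyme, followed another order, with log2 ratios of 1.60 and 1.49 in wild type but -0.44 and -0.39 in swd22. Of 8 hexose transporters, 3 were higher in wild type (37.5%, against 7.24% of all features). ght5, the high-affinity glucose transporter, held 1001 reads in the reference, 2385 in wild type and 12406, 3543 and 15686 in swd22, ssu72 and clr4.

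Some chaperone genes were lower. Of 21 heat shock and chaperone genes, 5 were at least 2-fold lower in wild type (23.8%, against 6.55% of all features) and 1, hsp9, was higher. hsp90 held 121782 reads in the reference, 25723 in wild type and 33334, 46521 and 72709 in swd22, ssu72 and clr4, and its log2 ratio of -1.67 (-1.69 to -1.65) in wild type was close to that of swd22 (-1.66). Its cochaperones sti1 (-1.29), wos2 (-1.06) and aha1 (-1.04), and the mitochondrial hsp10 (-1.38), were the other 4 lower genes. Each of these 5 genes had its lowest ratio in wild type, and none was 2-fold lower in clr4. In clr4, 6 of the 21 genes were higher and 0 lower, and in swd22 and ssu72 3 were higher, with 2 and 1 lower. Over all features, 11.3% (swd22), 11.9% (ssu72) and 11.1% (clr4) were higher, and 4.3%, 3.79% and 3.14% lower. The list's median was -0.35 in wild type and -0.28, -0.28 and 0.13 in swd22, ssu72 and clr4.

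The 79 features lower in all 4 libraries were led by 1 stretch of chromosome II beside the mating-type locus mat1. From cms1 to rpp202 (chrII:2109254-2128518), a length of 19265 bases, 12 features were measured, and all 12 were at least 2-fold lower in all 4 libraries. Of these, 8 held 0 reads in each of the 4 libraries. The small nucleolar RNA snR92 held 2640 reads in the reference and 0 in the 4 others, at least 593-fold lower in wild type against a floor of 3 reads. SPBC23G7.10c went from 472 to 0, SPNCRNA.388 from 747 to 0 and the antisense feature of SPBC23G7.13c from 636 to 0. Other features of the stretch kept some reads. rpp202, a ribosomal stalk protein, held 33188 reads in the reference, 166 in wild type and 84, 105 and 141 in swd22, ssu72 and clr4, a log2 ratio of -7.07 (-7.30 to -6.85) in wild type. SPBC23G7.14, which overlaps rpp202 on the opposite strand, held 1385, 12, 9, 16 and 8 reads. cms1, at the first edge, held 3193, 207, 263, 375 and 303 reads. rpt6, a subunit of the proteasome cap that every cell needs, held 4573 reads in the reference, 316 in wild type and 785, 766 and 411 in swd22, ssu72 and clr4. Of the 34 proteasome genes, rpt6 was the 1 lower gene in wild type (2.94%, against 6.55% of all features), and the list's median was 0.04.

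Beyond both edges of the stretch the ratios were smaller. SPBC23G7.06c, the next measured feature before cms1, had a log2 ratio of 0.24 in wild type, and aim27, the next gene with reads after rpp202, had -0.21, while the antisense feature of aim27 had -1.55. For the mat1 genes inside the stretch and for the mat3 genes and SPNCRNA.389, SPNCRNA.390 and SPNCRNA.391 after it, every deposited ratio was 0, so that no library can hold more than 4 reads. The 12 features had no 50-base window that occurs a second time in the 3 RefSeq chromosomes (0 of 12 over 10% repeated). The reference library alone held reads over the 8 silent features, and the cause was not tested. Elsewhere, SPNCRNA.1306 (chrII:78958-80201) held 403 reads in the reference and 0 in the 4 others, and yip12, all of whose windows are repeated, went from 25 to 0.

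**Figure D2:**
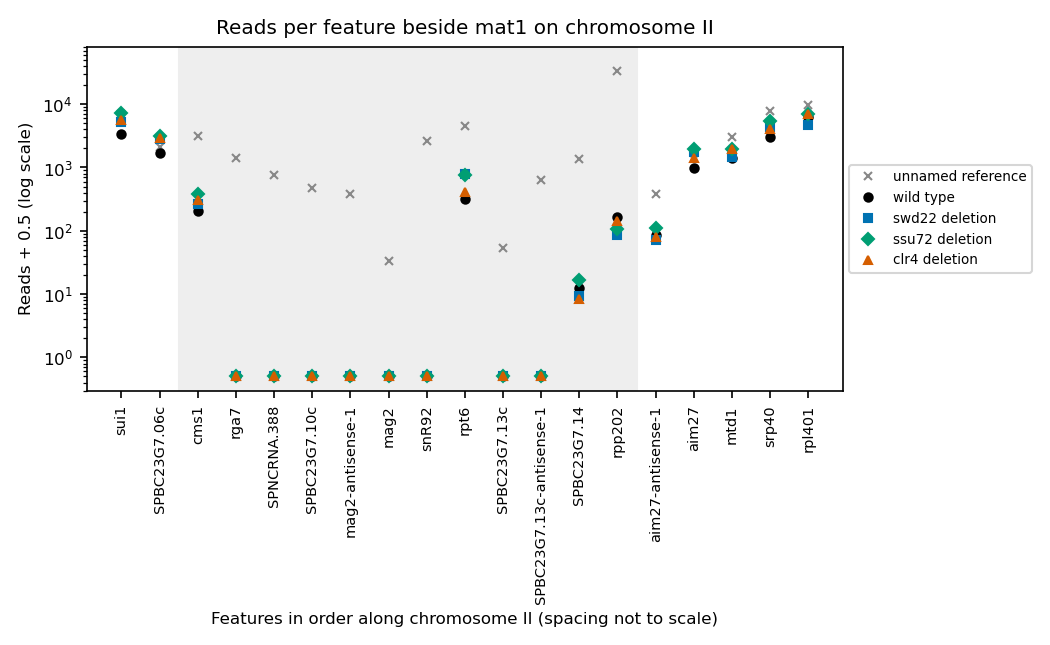
Reads per feature plus 0.5 (log scale, not scaled by depth) for the features beside mat1, in chromosome order, in the reference and the 4 libraries. The shaded features from cms1 to rpp202 are all lower in the 4 libraries than in the reference, with 8 of them at 0 reads, and of the neighbours on both sides the antisense feature of aim27 is also lower in the 4 libraries.

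Genes for ribosomes were a second group among the features lower in all 4 libraries. Of 138 cytosolic ribosomal protein genes, all measured, 14 were at least 2-fold lower in wild type (10.1%, against 6.55% of all features) and 0 were higher. Of the 138, 9 were lower in all 4 libraries, against 1.24% of all features. Among the 9 was rpp202, of the stretch beside mat1. The median of the list was -0.44 in wild type and -0.75, -0.51 and -0.62 in swd22, ssu72 and clr4. rps29 held 22321 reads in the reference, 3207 in wild type and 5373, 6453 and 4929 in swd22, ssu72 and clr4, a log2 ratio of -2.23 (-2.28 to -2.18) in wild type. rpl22 held 8677, 1279, 1953, 2894 and 2258 reads in that order, and rpl4102 13932, 2741, 4160, 5131 and 4349. In these 3 genes the 4 libraries lay close together and all far under the reference. Of 101 ribosome biogenesis genes, nop10, a component of the pseudouridylation complex, was the 1 lower gene (-1.63 in wild type). This is 0.99% of the list, against 6.55% of all features. The list's median was -0.22 in wild type and -0.43 to -0.36 in the mutants. mcp7, a meiosis-specific coiled-coil protein of the Mmi1-targeted list, was lower as well, with 2705, 254, 630, 933 and 689 reads. The small nucleolar RNA snR42 held 69216 reads in the reference, 7749 in wild type and 17464 to 28216 in the mutants.

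The windows of rps29 (chrII:516176-516425, plus strand) and rpl4102 (chrI:2853948-2854197, minus strand) hold CAGTCAC, in capitals, the motif known as the HomolD box upstream of ribosomal protein genes of fission yeast. Its reverse complement is GTGACTG. It lay in 68 of 138 ribosomal protein windows (49.3%) and in 3.28% of all windows. For mRNA features lower in all 4 libraries it lay in 6 of 35 windows (17.1%), and for those higher in all 4 in 3 of 160 (1.88%). The 35 include 9 ribosomal protein genes, so their share is not independent of that list. Both printed windows were picked from the ribosomal protein genes.
rps29: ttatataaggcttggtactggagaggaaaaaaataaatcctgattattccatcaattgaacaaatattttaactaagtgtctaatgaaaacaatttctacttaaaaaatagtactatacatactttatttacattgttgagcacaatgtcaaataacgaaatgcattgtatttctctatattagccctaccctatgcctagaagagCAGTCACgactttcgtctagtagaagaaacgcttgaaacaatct
rpl4102: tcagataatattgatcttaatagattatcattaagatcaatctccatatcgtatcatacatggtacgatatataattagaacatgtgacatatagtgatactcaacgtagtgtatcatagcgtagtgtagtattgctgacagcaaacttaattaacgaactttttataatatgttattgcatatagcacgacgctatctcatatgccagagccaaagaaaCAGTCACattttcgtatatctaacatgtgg

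**Figure D3:**
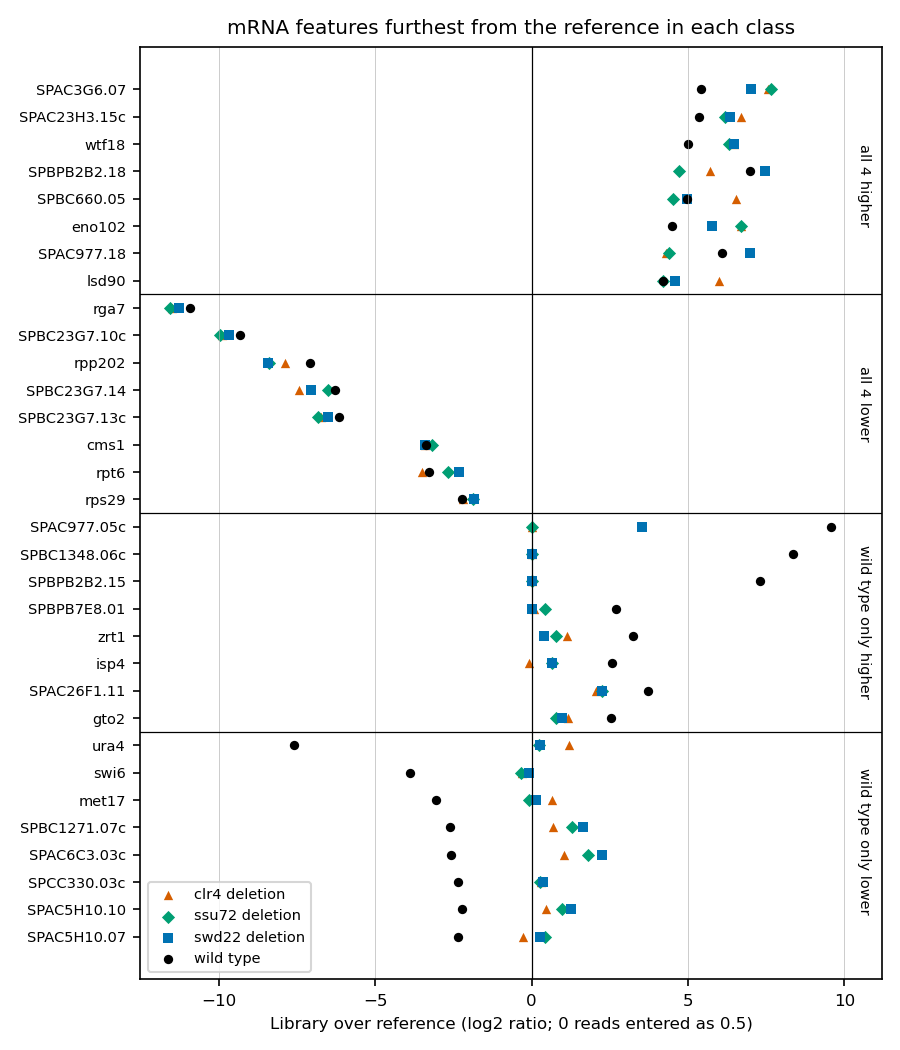
Log2 ratios to the reference in the 4 libraries for the 8 mRNA features of each class that the naming rule picked, with 0 reads entered as 0.5. In the lowest 2 panels the black points of wild type lie apart from the mutants, which lie between -0.33 and 1.18 for ura4, swi6 and met17. A ratio of exactly 0 for SPAC977.05c, SPBC1348.06c and SPBPB2B2.15 stands for at most 4 reads beside 0 reference reads.

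The 58 features higher in the library labelled wild type alone comprised 21 mRNA features, 33 other transcripts, of which 28 were nuclear transfer RNA genes, and 4 antisense features. Members of this class can be higher than the reference in the mutants too, by less than in wild type. Of the 24 features in 2 classes, 11 were nuclear transfer RNA genes. Among the mRNA features of this class, the 3 members of 1 subtelomeric family came first by the gap between wild type and the nearest other library. SPAC977.05c (chrI:35768-36382) held 254 reads in wild type, 5 in swd22 and 0 in the reference, at least 126-fold higher in wild type than in the reference. SPBC1348.06c (chrII:15981-16592) held 111 reads in wild type and SPBPB2B2.15 (chrII:4496373-4496984) 53, with 0 in the reference, at least 54.9-fold and 26.2-fold higher. Counts in the other mutants are open between 0 and 4 reads. The starts of the 3 genes, from RefSeq and with capitals at the bases that differ from SPAC977.05c once its first 3 bases are set aside, show how alike they are. Over 612 bases SPAC977.05c differs from each of the others at 4 bases, and the others do not differ from each other, so the reads may belong to any of them.
SPAC977.05c: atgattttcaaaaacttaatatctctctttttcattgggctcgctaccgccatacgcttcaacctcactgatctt
SPBC1348.06c: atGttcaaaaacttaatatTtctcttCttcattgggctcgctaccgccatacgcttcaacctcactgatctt
SPBPB2B2.15: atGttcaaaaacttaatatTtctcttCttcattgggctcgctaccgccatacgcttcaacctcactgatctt

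The next genes of wild type alone include transporters, a predicted surface protein and a predicted alpha-glucosidase, and none of their 50-base windows recurs in the genome. zrt1, the high-affinity zinc transporter, held 5866 reads in the reference, 37375 in wild type and 6739, 10568 and 12914 in swd22, ssu72 and clr4. Its log2 ratio was 3.24 (3.20 to 3.28) in wild type and 0.41 to 1.13 in the mutants, and wild type lay above them by 2.11 to 2.83. zym1, for the zinc-binding metallothionein, was higher as well, but wild type was the lowest of the 4 libraries (109, 320, 1042, 3328 and 2221 reads in the same order). SPBPB7E8.01, a genus-specific protein with a predicted membrane anchor, held 8072, 35027, 7015, 11436 and 8499 reads. isp4, an oligopeptide transporter, held 630, 2501, 853, 1042 and 606, and gto2, a predicted alpha-glucosidase, 879, 3452, 1506, 1592 and 1997. In these 4 genes, zrt1, SPBPB7E8.01, isp4 and gto2, the library labelled wild type lay above the reference and every mutant, and the mutants lay near the reference or between. SPAC26F1.11, annotated as dubious, was 2-fold higher in all 4 libraries and further out in wild type (106, 934, 433, 532 and 444 reads). It overlaps SPNCRNA.1054 on the same strand.

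Short non-coding features made up much of this class. Of 168 nuclear transfer RNA genes, 81 were measured. Of these, 53 were higher in wild type (65.4%, against 7.24% of all features) and 9 lower (11.1%, against 6.55%). A gene with under 10 reference reads was measured only through wild type, which favours the higher side. In the mutants 27 of 77 (swd22), 35 of 80 (ssu72) and 28 of 78 (clr4) were higher, against 11.3%, 11.9% and 11.1% of all features. The median was 1.68 in wild type against 0.17 in swd22, 0.71 in ssu72 and 0.12 in clr4, each over the genes measured there. Transfer RNA genes took 0.0416% of the reads of the reference, 0.207% of those of wild type and 0.0946% to 0.105% of those of the mutants. Across all features shorter than 150 bases, 64 of 130 measured were higher in wild type (49.2%) and 21 lower (16.2%), while features of 1500 to 3000 bases had 5.80% higher and 3.23% lower. The part of feature length in the values of the transfer RNA genes was not tested.

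Copies of 1 leucine transfer RNA gene show the range. SPBTRNALEU.09 held 2 reads in the reference, 604 in wild type and 32, 40 and 15 in swd22, ssu72 and clr4. Its log2 ratio was 8.81 (6.95 to 11.86) in wild type and 4.21, 4.24 and 2.90 in the mutants, so it was also higher in all 4 libraries. SPATRNALEU.04 (chrI:4059028-4059106), whose sequence is identical, held 1, 0, 7, 2 and 5 reads. A second set of 3 identical genes differs from these at 2 bases, in capitals. Of this set SPBTRNALEU.10 held 22, 91, 23, 35 and 37 reads, SPBTRNALEU.08 0, 16, 7, 8 and 5, and SPCTRNALEU.11 4, 57, 9, 17 and 26. All 79 bases of each gene, from RefSeq, are given.
SPBTRNALEU.09: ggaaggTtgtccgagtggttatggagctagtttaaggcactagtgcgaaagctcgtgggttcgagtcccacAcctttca
SPATRNALEU.04: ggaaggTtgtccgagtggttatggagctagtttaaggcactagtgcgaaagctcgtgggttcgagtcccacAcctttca
SPBTRNALEU.10: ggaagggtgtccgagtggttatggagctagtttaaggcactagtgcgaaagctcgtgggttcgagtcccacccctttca
Of the 28 transfer RNA genes in this class, 14 have an identical copy elsewhere in the genome, so that a read of the gene alone cannot be placed. Identical genes held unlike numbers of reads, and how the authors placed such reads is not given in the sources used here.

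Measured features near the chromosome ends were mostly higher in the library labelled wild type. Of 81 features within 50 kb of an end of chromosome I or II, 41 were measured. Of these, 35 were higher than the reference by 2-fold or more (85.4%, against 7.24% of all features) and 0 were lower. A feature with under 10 reference reads was measured only through wild type, so the read minimum itself favours higher features here. The median log2 ratio of these 41 was 3.85. Other features passed the read minimum in the mutants, and 34 of 39 were higher in clr4 (87.2%, median 3.56), 17 of 27 in swd22 (63.0%, median 1.65) and 18 of 29 in ssu72 (62.1%, median 1.504). The shares over all features were 11.1% in clr4, 11.3% in swd22 and 11.9% in ssu72. Over the 23 features measured in all 4 libraries, 17 were higher in wild type (median 2.89), 13 in swd22 (1.24), 12 in ssu72 (1.11) and 18 in clr4 (1.89). From 50 to 100 kb, 33 of 81 features were higher (40.7%) and 12 lower, and from 100 to 200 kb the shares were 8.92% and 9.39%. Of the 41 features, 25 have over 10% of their 50-base windows repeated elsewhere. Among the features with fewer repeats, 12 were measured in all 4 libraries. Of these, 7 were higher in wild type and 7, 6 and 8 in swd22, ssu72 and clr4. Their medians were 1.496 in wild type and 1.591, 0.515 and 1.632 in swd22, ssu72 and clr4. In these 12 the median of wild type did not exceed that of clr4. tlh2, a RecQ-type helicase gene of the last repeat before the telomere, held 115 reads in the reference, 771 in wild type and 20, 370 and 4618 in swd22, ssu72 and clr4. It was higher than the reference in wild type, at 3.32 (3.03 to 3.61), and highest in clr4. Its relatives tlh1 (3, 32, 1, 0 and 103 reads) and SPAC212.06c (48, 105, 7, 65 and 668 reads) had the same order of wild type between swd22 and clr4. Next to 2 of the family members above lay further features of wild type alone, SPAC977.06 and SPNCRNA.601 on chromosome I and SPBC1348.07 and SPNCRNA.287 on chromosome II. SPNCRNA.287 held 8, 105, 15, 12 and 18 reads.

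**Figure D4:**
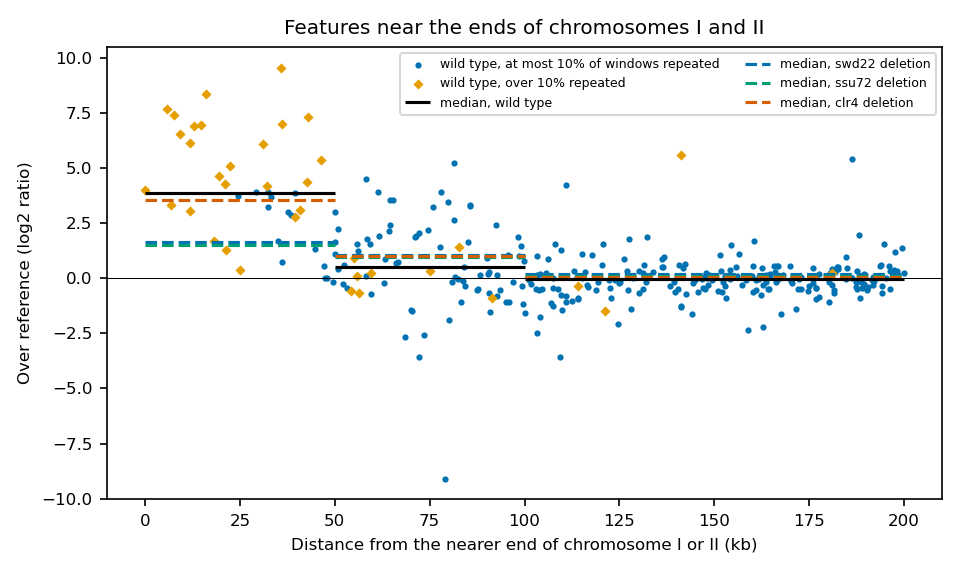
Log2 ratio to the reference for measured features of the library labelled wild type against the distance from the nearer end of chromosome I or II, split by the share of 50-base windows that is repeated. Lines give the median of each library in each distance range over the features measured in that library, which within 50 kb are 41 features with 3.85 for wild type and 39 with 3.56 for clr4.

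The 125 features lower in the library labelled wild type alone comprised 37 mRNA features, 69 other transcripts, of which 61 were SPNCRNA features, and 19 antisense features. ura4, the orotidine decarboxylase of uracil synthesis and a common selection marker, held 1732 reads in the reference, 6 in wild type and 1823, 2160 and 3961 in swd22, ssu72 and clr4, a log2 ratio of -7.60 (-9.05 to -6.48). It was the 1 gene of the 10 auxotrophic marker genes that was 2-fold lower in wild type (10%, against 6.55% of all features). Next on that list by size were arg1 (-0.85), leu1 (-0.72) and his2 (-0.68), none of them past 2-fold. swi6, which codes for the chromodomain protein of silent chromatin, held 4431, 200, 3631, 3729 and 3601 reads. It was the 1 lower gene of 25 heterochromatin and RNA interference factors (4%, against 6.55% of all features). met17, homocysteine synthase, held 5463, 447, 5222, 5446 and 8710 reads. For these 3 genes the mutants lay near the reference, apart from clr4 at ura4 (1.18), and wild type stood far below all of them.

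Other genes of this class code for redox enzymes or small proteins, and some lie in pairs. SPAC5H10.10, a predicted NADPH dehydrogenase, held 3170, 458, 6583, 6531 and 4400 reads, and SPAC5H10.07, close by on chromosome I, 220, 29, 230, 317 and 185. SPAC5H10.10 overlaps gmh1 and an antisense feature on the same strand and can share reads with them. SPCC330.03c, a predicted NADPH-hemoprotein reductase (chrIII:109597-110654), held 1460, 191, 1636, 1880 and 1796 reads. On chromosome II a stretch of 5 features (chrII:355980-359866) was lower in wild type alone. In it, SPBC1271.07c, a predicted N-acetyltransferase, overlaps SPBC1271.08c on the same strand, so they can share reads. SPBC1271.07c held 1373, 153, 3725, 3544 and 2223 reads. The neighbouring antisense feature of SPBC1271.08c held 383, 40, 1291, 1154 and 921. Both were lower than the reference in wild type and higher than it in the 3 mutants, though for SPBC1271.07c by less than 2-fold in clr4. A second stretch (chrII:443917-451618) held arg12, argininosuccinate synthase, with 15199, 4353, 27471, 33892 and 14528 reads. Another lay on the mitochondrial genome and held transfer RNA genes for tryptophan, leucine and isoleucine. SPNCRNA.774 (107, 3, 42, 49 and 130 reads) and SPNCRNA.1159 (97, 9, 91, 102 and 83 reads) were the non-coding RNAs with the widest gap between wild type and the nearest other library. Members of this class can be lower than the reference in mutants too. SPNCRNA.774 had -1.14 in swd22 and -1.21 in ssu72. Its ratio in wild type, -4.59 (-6.89 to -3.00), rested on 3 reads. Over the 547 SPNCRNA features measured in wild type the median was -0.57, with 177 lower (32.4%) and 62 higher (11.3%). Over the 566, 582 and 592 measured in swd22, ssu72 and clr4 it was 0.12, 0.18 and 0.18.

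Several pathway lists had a median in wild type that lay apart from those of the mutants. Of 26 measured mating and differentiation genes, 9 were higher in wild type (34.6%, against 7.24% of all features) and 1 lower (3.85%, against 6.55%). In swd22, ssu72 and clr4, 9, 2 and 6 of the 26 were higher, against 11.3%, 11.9% and 11.1% of all features. Thus swd22 had as many as wild type. Only 2 of the 26 genes were in the higher class of wild type alone. The median was 0.78 in wild type and 0.44, -0.01 and 0.27 in swd22, ssu72 and clr4. The genes of the M pheromone led. mfm2, a precursor of M-factor, held 590 reads in the reference, 1864 in wild type and 1232, 645 and 1188 in swd22, ssu72 and clr4, mfm1 12, 98, 27, 18 and 62, and mfm3 22, 46, 25, 28 and 29. mam2, the receptor for the opposite pheromone, held 125, 495, 413, 284 and 299 reads, and ste11, the transcription factor of sexual differentiation, 1847, 3427, 4001, 2134 and 4049. Wild type had the highest ratio for the 3 precursors and mam2, and ssu72 was near the reference for mfm2 and ste11.

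Of 5 copper uptake genes, 3 were higher in wild type (60.0%, against 7.24% of all features), and 1, 3 and 0 in swd22, ssu72 and clr4. The list's median was 1.43 in wild type and 0.62, 1.10 and 0.78 in the mutants. ctr4, a copper transporter subunit, held 1809, 4429, 2404, 2611 and 3208 reads, a log2 ratio of 1.86 in wild type. Its partner ctr5 held 1395, 2530, 2659, 3497 and 2410. Of 13 iron uptake genes, 2 were higher (15.4%, against 7.24% of all features) and 2 lower (15.4%, against 6.55%) in wild type. In swd22, ssu72 and clr4, 1, 3 and 2 were higher and 0, 1 and 1 lower. Over all features in these libraries, 11.3%, 11.9% and 11.1% were higher and 4.3%, 3.79% and 3.14% lower. The median of the iron list in wild type, 0.04, lay among those of the mutants (-0.15, 0.53 and -0.08). fio1, the ferroxidase (-1.31), and its partner permease fip1 (-1.68) were lower in wild type, while frp1, the ferric reductase (1.71), and shu1, a haem receptor (3.27), were higher. fip1 held 796, 167, 617, 1298 and 548 reads, so wild type was lowest and ssu72 highest. Of 19 genes of sulfate assimilation and methionine synthesis, 3 were lower in wild type (15.8%, against 6.55% of all features), met17, cys2 (-1.09) and SPAC869.05c, a predicted sulfate transporter gene (-1.50), with the mutants between -0.23 and 1.01 for the latter pair. Of 7 phosphate genes, tgp1, a glycerophosphodiester transporter (2.39), and vtc4, of polyphosphate synthesis (1.12), were higher in wild type (28.6%, against 7.24%). In clr4, 2 of the 7 were higher, and in swd22 and ssu72 0 were higher and 2 lower. The list's median of -0.29 in wild type was close to that of ssu72 (-0.27), with -0.18 in swd22 and 0.002 in clr4. pho84, the phosphate transporter, had -0.52 in wild type and -2.22, -2.21 and 0.00 in swd22, ssu72 and clr4.

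No gene of mitosis and cell separation (20 measured) or of G1/S transcription (20 measured) was 2-fold from the reference in wild type. Among all features, 7.24% were higher and 6.55% lower. The median of the first list was 0.39 in wild type and -0.55, -0.69 and -0.14 in swd22, ssu72 and clr4, and that of the second 0.26 against -0.30, -0.40 and -0.03. eng1, the glucanase that separates daughter cells, held 11909 reads in the reference, 14386 in wild type and 4099, 5280 and 7881 in swd22, ssu72 and clr4. Of 11 histone genes, hhf3, for histone H4, was the 1 higher gene (1.03), 9.09% of the list against 7.24% of all features. Genes of the CPF and of termination had 0 of 18 past 2-fold, with a median of 0.19. Of 13 Tf2 retrotransposon features, 3 were measured in wild type and they did not lie on one side, with log2 ratios of 0.87 for Tf2-10, 0.47 for Tf2-13 and -1.48 for Tf2-11. Their median of 0.47 changed sign to -1.48 with a minimum of 50 reads, which left Tf2-11, and to -0.38 with no minimum. Those 3 features had ratios of 2.74 to 5.22 in the mutants. Mitochondrial coding genes had a median of -0.12 in wild type and 0.71 to 0.99 in the mutants, and mitochondrial transfer RNAs -0.57 against 0.37 to 0.59.

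**Figure D5:**
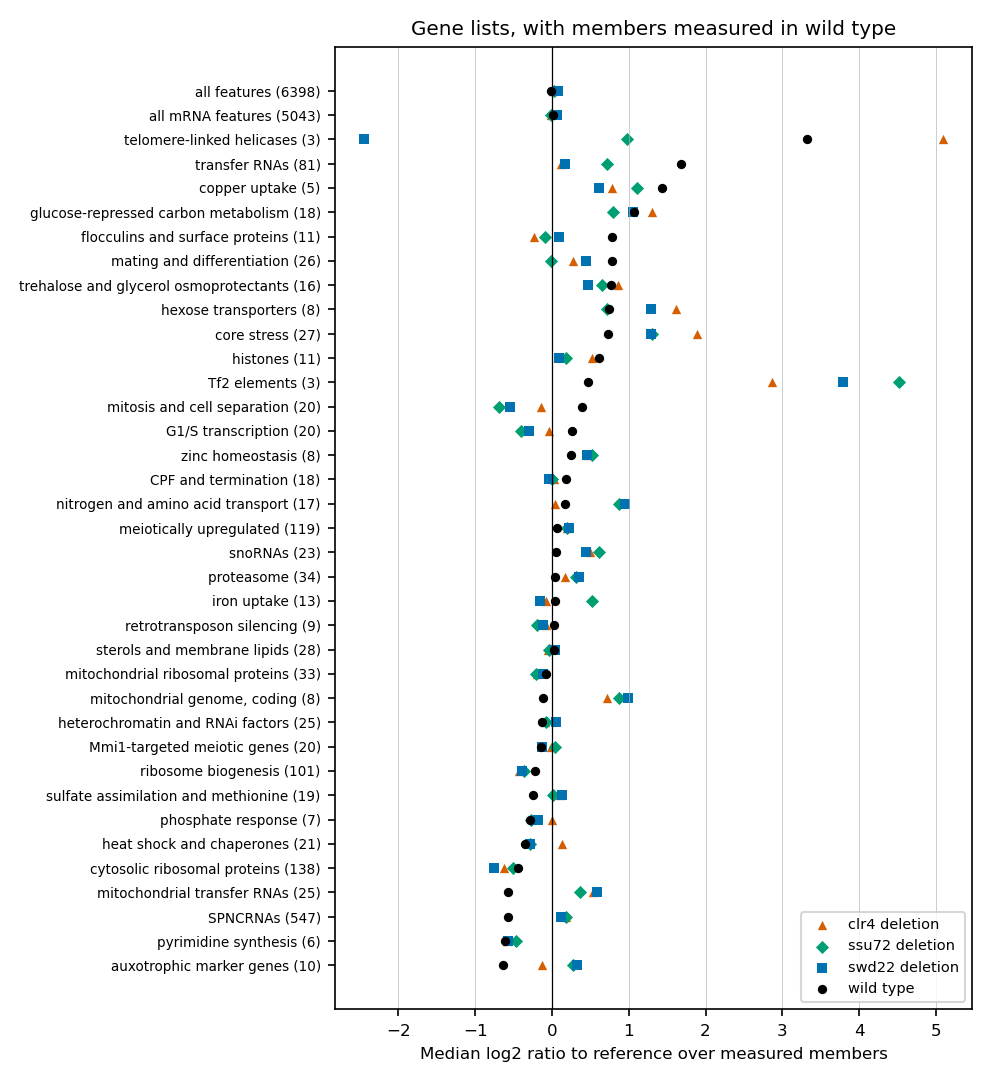
Median log2 ratio to the reference of each gene list in the 4 libraries, over the members measured in each library, with the number measured in wild type in brackets. Black points of wild type lie between -0.63 and 3.32. They lie left of all 3 mutants for SPNCRNAs and mitochondrial transfer RNAs and right of all 3 for nuclear transfer RNAs, mating genes and flocculins.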

How the data were processed

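RNA of 4 cultures was sequenced, 1 library each for wild type and the deletions of swd22, ssu72 and clr4. The genotype label set the groups. The submitters' processing notes name Trimmomatic and STAR without versions. Build, counting and the program behind the ratios are not stated there or in the labels. Each deposited file gives, per the file headers, 1 log2 ratio and 1 p-value per feature. The deposited log2 values are ratios to an unnamed reference library that all 4 files share, and the deposited p-values compare single libraries and were used only to recover reads.

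The ratio and the p-value together fix both read numbers under a random sampling model. Of 7015 features, 6563 were solved from both and 90 from the ratios alone, and 362 could not be solved because every ratio is 0, as it is where no library exceeds 4 reads. A count of 0 enters the deposited ratios as 0.5 reads. The reference counts derived from the p-values of the 4 files deviated by at most 1.24e-05 (relative) from the whole numbers chosen. The design had named the deposited ratio as the scale, and it was kept. Beside 0 reference reads, a count behind a ratio of 0 is open from 0 to 4, and it was set to 4 when wild type was higher. On simulated data for wild type against the reference, 100% of 6633 reference counts were recovered, made with the same model. There, 100% of 50 features raised 4-fold and of 50 lowered 4-fold passed the threshold. So did 58% of 50 raised 2-fold, 46% of 50 lowered 2-fold and 0.45% of 6223 unchanged ones. The simulated counts varied by counting error only, so these shares do not cover differences between cultures.

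A feature was measured at 10 reads in the higher library, and 2-fold was the threshold. Counting intervals (95%, exact, Clopper-Pearson) use the reads of both libraries and cover counting error only, as reads that carry no molecular identifier can be copies of 1 molecule. Folds against 0 reads use a floor of 3 reads in that library. The features named are the deleted genes and the marker genes, for each class the 8 mRNA and 3 other features furthest out by the smallest of the 4 ratios, or by the gap between wild type and the nearest other library, with at least 50 reads in a library, and for each of 35 lists up to 4 measured members with the largest ratio in wild type. Other features were named after their values were seen, as members of a stretch, a family or a list. The members, lists and classes were chosen with earlier results of these data known. From the lists, 26 symbols were removed because the files describe another gene under that name.

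Sequences come from RefSeq (ASM294v3). Of 5543 features on chromosomes I to III matched by name, 99.2% share chromosome and at least 1 end with RefSeq, and all 168 transfer RNA genes share both. The share of 50-base windows that recur on either strand of the 3 chromosomes was computed for each feature. Alternatives were another scaling, other read minimums, a 3-fold threshold, the near bound of the interval, 1 added read, mRNA features only and, added after seeing the data, leaving out the stretch beside mat1. Python 3.11.15, NumPy 2.4.6, pandas 2.3.3, SciPy 1.17.1 and Matplotlib 3.10.9 were used.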

Additional observations from a re-analysis of the deposited data

Results flagged for a closer look

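In 11 features with at least 50 reads in a library, the library labelled wild type lay at least 2-fold on one side of the reference and all 3 mutants at least 2-fold on the other side. The difference between wild type and the mutants was not tested, since each group holds 1 library, and all values share the reference. In 10 of the 11 features wild type was the lower side.

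Log2 ratios in wild type were -2.69 for the antisense feature of SPBC1271.08c, named SPBC1271.08c-antisense-1, and -1.54 for SPBC1271.08c itself, which overlaps it on the other strand. SPBC1271.08c held 1332 reads in the reference and 309 in wild type, against 10406 (swd22), 11048 (ssu72) and 7912 (clr4). SPAC6C3.03c had -2.58, and its feature overlaps the non-coding prl57 on the same strand. SPNCRNA.1255 had -2.21, with 55, 8, 414, 491 and 409 reads in the same order. SPBC18E5.15 had -1.53, SPCC569.04 -1.43, SPCC70.08c, a predicted methyltransferase, -1.30, SPAC11D3.19 -1.13 and SPNCRNA.472 -1.08. Of these, SPCC569.04 and SPNCRNA.472 held 16 and 22 reads in the reference, and their counting intervals include 0.

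Tf2-11, a retrotransposon, had -1.48 in wild type, with 120 reads in the reference and 29 in wild type, against 1513 (swd22), 4740 (ssu72) and 934 (clr4). Copies of this element are near-identical and can share reads. The aspartate transfer RNA gene SPCTRNAASP.05 was the 1 feature with wild type on the higher side, at 1.085, with 350, 500, 88, 145 and 136 reads. All of its 50-base windows recur elsewhere.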

How the results depend on the processing

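No paired analysis was possible because each group holds 1 library, and for the same reason no library could be left out within a group. The counts for wild type against the reference, for all 4 libraries and for wild type alone moved by less than 1.5 times when ratios were centred on the median, when they were scaled by reads over mRNA features, with a minimum of 50 reads or none, with 1 read added to every count and without the stretch beside mat1. With a 3-fold threshold, 235 features were higher and 173 lower in wild type, 101 and 29 in all 4 libraries, and 18 and 41 in wild type alone. With the near bound of the counting interval past 2-fold, the 313 higher features in wild type stayed within 1.5 times, and the other counts were 199 lower in wild type, 141 higher and 44 lower in all 4, and 23 higher and 35 lower in wild type alone. Among mRNA features alone the counts were 274 higher and 144 lower, 160 and 35 in all 4, and 21 and 37 in wild type alone. Each of these 3 settings can only remove features by construction. Of 140 list medians under another setting, 139 stayed within the exact 95% interval of the median, which is the whole range of the members in the smallest lists. The exception was the SPNCRNA list, at -0.45 with no read minimum. A change of sign was seen for 3 medians of 2 lists. The Tf2 median went from 0.47 to -1.48 with a minimum of 50 reads and to -0.38 with none, and the iron uptake median from 0.04 to -0.05 with a minimum of 50 reads. Both scalings shifted the ratios of wild type by -0.01 and 0.04. Depth limits features under 50 reads, of which 25.5% were higher and 20.7% lower in wild type, against 4.17% each among features with at least 5000 reads.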
